A study of Mus musculus with 6 samples.

Results

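Among the germ cells that sustain sperm production, a small number of genes have been reported to label only a primitive fraction of the undifferentiated spermatogonia. The 10 genes described here are such markers: Pax7, Eomes, T, Pdx1, Foxc2, Utf1, Tspan8, Plvap, Shisa6 and Smoc2. They were chosen by name, with earlier results of these data known. All 10 were found by an exact match of the symbol among the 54087 gene rows of the deposited counts. The libraries came from male C57BL/6 mice at 10 days post partum (10 dpp). Germ cells were sorted by the fluorescence of an Id4-GFP reporter, bright and medium cells together, a gate that the labels describe as approximately spermatogonial stem cells. In all, 3 libraries came from Dnmt3A WT/WT and 3 from Dnmt3A KO/KO mice, and every library of both genotypes carries the reporter sort. Dnmt3a encodes a de novo DNA methyltransferase, and the question put to the markers was whether their RNA differs between KO/KO and WT/WT. The labels do not say how the allele was made, in which cells it is lost, or whether the 3 samples of a genotype are separate animals or pools, so the p-values measure only the spread between these samples.

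Spermatogonial stem cells lie on the basement membrane of the seminiferous tubule and either renew themselves or pass through progenitor and KIT-positive differentiating stages towards meiosis. Self-renewal depends on the niche factor GDNF, which acts through the receptor RET and its co-receptor GFRA1. Within the GFRA1-positive pool, lineage tracing and single-cell work have named several partly overlapping subsets, each by a gene better known from another tissue: Pax7 from muscle satellite cells, Eomes and T from the early embryo, Pdx1 from the pancreas, Foxc2 from lymphatic vessels and Plvap from fenestrated endothelium.

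Gene counts summed to between 42681201 and 61749155 per library. Every pair of libraries differed by more than sampling noise (the lowest chi-square per degree of freedom was 13.5). This measure was 13.5 to 16.2 between WT/WT libraries and 40.4 to 54.5 between KO/KO libraries. KO/KO replicate 1 was at 38.4 to 39.3 against the WT/WT libraries, and at 40.4 and 41 against the other KO/KO ones. KO/KO replicates 2 and 3 were at 78 to 101 against the WT/WT libraries. Levels are given as CPM, read counts scaled by library size. Dnmt3a, the check of the genotype, had 215, 193 and 188 CPM in the WT/WT libraries, against 90.2, 104 and 99.5 CPM in the KO/KO ones. Dnmt3a RNA thus remained in KO/KO (log2 fold change -1.02, SE 0.09), and the protein was not measured. The germ cell genes Ddx4 and Dazl were present at no less than 305 CPM in each library. Over 6 germ cell markers, these among them, the summed level was lower in KO/KO. It was 1681 to 1781 CPM in the WT/WT libraries, against 1385 to 1536 CPM in the KO/KO ones, and Zbtb16 and Sall4 were called lower. Sertoli cell markers were also present, at a summed 242 to 337 CPM in the WT/WT libraries, against 227 to 350 CPM in the KO/KO ones. Interstitial stromal markers summed to 78.7 to 109 CPM in the WT/WT libraries, against 38.6 to 56.1 CPM in the KO/KO ones.

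Promoter windows were found for 6 of the 10 genes in a RefSeq table (GRCm38.p6), each running from 250 bases before to 50 bases after the annotated start. The windows of 5 tested markers are shown because DNMT3A methylates cytosine in CpG dinucleotides, which are in capitals. They belong to 4 genes that were higher in KO/KO and to Utf1, the marker that lay lower. The positions, on the gene's strand, are chr4:139832919-139833218 (minus) for Pax7, chr9:118477939-118478238 (plus) for Eomes, chr17:8434173-8434472 (plus) for T, chr10:115817034-115817333 (plus) for Tspan8 and chr7:139943606-139943905 (plus) for Utf1.
Pax7: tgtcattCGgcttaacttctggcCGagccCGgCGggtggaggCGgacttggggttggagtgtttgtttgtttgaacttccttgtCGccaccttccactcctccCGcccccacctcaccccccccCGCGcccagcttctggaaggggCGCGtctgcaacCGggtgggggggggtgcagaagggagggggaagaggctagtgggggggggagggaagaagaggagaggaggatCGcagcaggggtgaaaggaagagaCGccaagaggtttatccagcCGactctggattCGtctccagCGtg
Eomes: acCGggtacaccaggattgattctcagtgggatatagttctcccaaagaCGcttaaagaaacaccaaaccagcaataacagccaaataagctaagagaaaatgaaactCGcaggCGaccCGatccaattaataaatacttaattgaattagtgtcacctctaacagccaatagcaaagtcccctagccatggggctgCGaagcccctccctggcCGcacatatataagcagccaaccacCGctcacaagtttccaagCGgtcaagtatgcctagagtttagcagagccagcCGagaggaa
T: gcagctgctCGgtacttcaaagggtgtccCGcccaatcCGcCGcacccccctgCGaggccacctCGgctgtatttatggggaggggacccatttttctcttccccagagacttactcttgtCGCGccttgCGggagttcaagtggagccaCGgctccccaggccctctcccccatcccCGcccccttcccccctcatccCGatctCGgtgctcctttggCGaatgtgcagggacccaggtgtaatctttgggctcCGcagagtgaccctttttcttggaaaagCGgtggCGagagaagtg
Tspan8: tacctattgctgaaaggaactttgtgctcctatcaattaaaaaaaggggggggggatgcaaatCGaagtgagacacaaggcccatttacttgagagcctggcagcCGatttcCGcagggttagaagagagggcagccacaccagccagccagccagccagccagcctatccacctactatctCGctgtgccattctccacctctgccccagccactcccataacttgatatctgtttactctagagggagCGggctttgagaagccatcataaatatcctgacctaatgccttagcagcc
Utf1: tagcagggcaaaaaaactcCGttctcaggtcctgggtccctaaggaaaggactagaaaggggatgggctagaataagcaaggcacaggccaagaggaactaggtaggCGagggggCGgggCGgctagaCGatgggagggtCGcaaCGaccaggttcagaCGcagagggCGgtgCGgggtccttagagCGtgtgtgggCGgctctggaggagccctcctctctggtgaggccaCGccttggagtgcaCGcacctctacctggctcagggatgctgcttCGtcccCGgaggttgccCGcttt

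The windows of Pax7, T and Utf1 each held 17 CpG, that of Eomes 10 and that of Tspan8 5. Over all 32851 windows of the same length the median was 7, and 68.6% of windows had fewer than 17. Plvap, Foxc2, Shisa6 and Smoc2 had no window, and a link between CpG count and the change in KO/KO was not tested. The Pdx1 window held 11. The E-box CANNTG, read on both strands, occurred 3 times in the T window, 3 times in the Pdx1 window and in none of the other 4, against 72.3% of all windows with at least 1. The forkhead motif TGTTTAC occurred once, in the Tspan8 window, and in 3.65% of all windows. The T-box motif TCACACCT and the EGR motif GCGTGGGCG were in none of the 6, and in 1.28% and 0.612% of all windows. These are matches of letters only, and methylation was not measured here.

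In KO/KO, 6 of the 9 markers that could be tested were higher than in WT/WT: Pax7, Plvap, T, Tspan8, Eomes and Foxc2, by 1.63-fold to 3.23-fold (quasi-likelihood test of edgeR, adjusted over 21314 genes by Benjamini-Hochberg, threshold 0.05). None was called lower by this test. Utf1 had an unadjusted p under 0.05 in that direction, DESeq2 called it lower, and limma-voom called 0 markers lower. Over all genes, 8.33% were called higher and 6.42% lower, 14.8% in either direction. The median log2 fold change of the 9 tested markers was 1.07, against 0.00 over all genes tested. As the markers were chosen with earlier results of these data known, setting them against all genes is no independent test. Each of these 9 had at least 40 counts in every library, and the tenth, Pdx1, had too few to be tested. The libraries of the genotypes did not overlap for 6 markers higher in KO/KO and 1 lower, where 18.2% and 17.5% of all genes tested were separated in these directions. Without WT/WT replicate 2, or without WT/WT replicate 3, only Pax7 and Plvap were still called, while the calls over all genes fell from 1776 higher to 814 and 892. In bulk RNA, more cells of a subset and more RNA in each cell cannot be told apart.

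**Figure D1:**
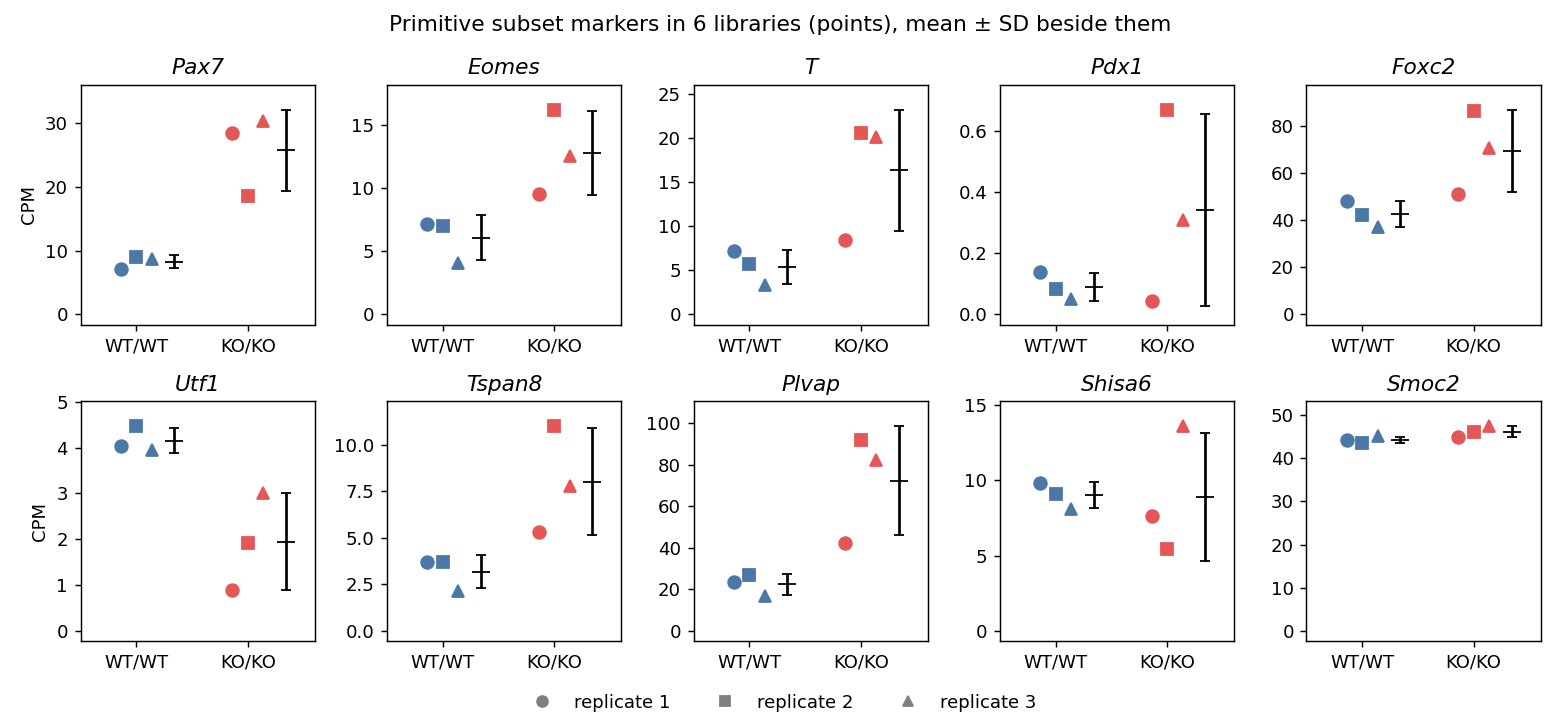
CPM of the 10 markers in each library (points, with shape giving the replicate number) and the mean ± SD of 3 libraries per genotype. Pax7, Eomes, T, Foxc2, Tspan8 and Plvap lie higher in all KO/KO than in all WT/WT libraries, Utf1 lies lower, and Pdx1, Shisa6 and Smoc2 overlap.

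Of the transcription factors, Pax7 changed most evenly. This paired-box regulator (chromosome 4, 139737062 to 139833528, minus strand, GRCm38) is known from muscle satellite cells and marks rare spermatogonia. Its levels were 7.12, 9.05 and 8.65 CPM in the WT/WT libraries, against 28.4, 18.5 and 30.3 CPM in the KO/KO ones. Every KO/KO library was at least 18.5 CPM and no WT/WT library exceeded 9.05 CPM. This gave a log2 fold change of 1.64 (SE 0.19, 95% interval 1.20 to 2.07, edgeR adjusted p = 0.000965), and it stayed called in every alternative fit. Of 6 genes of muscle satellite and myogenic cells 2 could be tested, and 1 was called lower. Their summed level was 10.6 to 11.4 CPM in the WT/WT libraries, against 2.92 to 7.15 CPM in the KO/KO ones. Myf5, a myogenic factor of satellite cells, had no count in any library, Myod1 was at most 0.114 CPM, Myog at most 0.27 CPM, and Actc1 had 4, 0 and 0 counts in WT/WT and 6, 3 and 4 in KO/KO. Des, which could be tested, had a log2 fold change of -1.37 (SE 0.47, edgeR adjusted p = 0.0846), and DESeq2 called it lower (adjusted p = 0.0404). The satellite cell cadherin gene Cdh15 was at 8.88, 8.91 and 10.2 CPM in the WT/WT libraries, against 6.14, 2.55 and 3.92 CPM in the KO/KO ones (log2 fold change -1.15, SE 0.28, edgeR adjusted p = 0.0226). Cdh15 lost its call without any single WT/WT library and without KO/KO replicate 3.

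Both T-box markers were higher in KO/KO. Eomes (chromosome 9, 118478212 to 118486132, plus strand), a regulator of mesendoderm and of lymphocytes, stood at 7.19, 6.98 and 4.04 CPM in the WT/WT libraries, against 9.56, 16.2 and 12.5 CPM in the KO/KO ones. WT/WT replicate 3 was the lowest library and KO/KO replicate 2 the highest, and the log2 fold change was 1.07 (SE 0.26, edgeR adjusted p = 0.0219). The lymphocyte marker gene Cd3e, which could mark another source of Eomes RNA, was between 0.730 and 1.23 CPM in the WT/WT libraries, against between 0.290 and 0.527 CPM in KO/KO. The natural killer cell gene Klrb1c had no count, and Ncr1 had 2 counts in 1 WT/WT library. Gzma had 2, 0 and 0 counts in WT/WT and 0, 3 and 7 in KO/KO, and Nkg7 had 2 counts in 1 KO/KO library. Over these 5 genes the summed level was 0.776 to 1.23 CPM in the WT/WT libraries, against 0.29 to 0.636 CPM in the KO/KO ones, and the part of lymphocytes in the Eomes values was not tested.

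T (chromosome 17, 8434423 to 8442496, plus strand) encodes brachyury, the T-box factor of mesoderm. It had 7.21, 5.69 and 3.36 CPM in the WT/WT libraries, against 8.44, 20.6 and 20.1 CPM in the KO/KO ones. KO/KO replicate 1 lay just above the highest WT/WT library, whereas the other KO/KO libraries were near 20 CPM. KO/KO exceeded WT/WT by a log2 fold change of 1.59 (SE 0.36, edgeR adjusted p = 0.0162). The calls of Eomes and T were lost without WT/WT replicate 2 (edgeR adjusted p = 0.0591 and 0.0649) and without WT/WT replicate 3 (0.0672 and 0.0615), with log2 fold changes from 0.84 to 1.63.

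Foxc2 (chromosome 8, 121116171 to 121118895, plus strand), a forkhead factor of lymphatic vessels and mesenchyme with a single exon, changed least among the 6. It stood at 48.4, 42.3 and 37.2 CPM in the WT/WT libraries, against 51.3, 86.5 and 70.8 CPM in the KO/KO ones. The gap between the highest WT/WT and the lowest KO/KO library was small. For Foxc2 the log2 fold change was 0.71 (SE 0.18, edgeR adjusted p = 0.0253), and 0.70 and 0.61 without WT/WT replicate 2 and 3, where the call was lost (edgeR adjusted p = 0.0979 and 0.107).

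Utf1 was tested and not called, and Pdx1 had too few counts to be tested. Utf1 (chromosome 7, 139943789 to 139945112, plus strand) encodes a chromatin-associated protein of undifferentiated cells. It had 4.04, 4.47 and 3.95 CPM in the WT/WT libraries, against 0.894, 1.93 and 3.02 CPM in the KO/KO ones, from 40, 95 and 195 counts. WT/WT libraries lay close together, while KO/KO libraries spread over 3.38-fold and all lay lower. The log2 fold change was -1.08 (SE 0.36, 95% interval -1.89 to -0.26, edgeR adjusted p = 0.0777). Utf1 passed the threshold without KO/KO replicate 3 (log2 fold change -1.53, edgeR adjusted p = 0.0175), and also without the filter on low counts (edgeR adjusted p = 0.00154) and with DESeq2 (adjusted p = 0.0165).

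Pdx1 (chromosome 5, 147269959 to 147275848, plus strand), the homeobox factor of pancreas and duodenum, had 6, 4 and 2 counts in WT/WT and 2, 33 and 20 counts in KO/KO. KO/KO replicate 1 was as low as the lowest WT/WT library, and only the other KO/KO libraries were higher. Fitted without the filter, its log2 fold change was 1.89 (SE 0.84, edgeR adjusted p = 0.148). Its neighbours in the ParaHox family, Gsx1, Gsx2, Cdx1, Cdx2 and Cdx4, were each at or under 0.515 CPM in every library and were not tested.

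Plvap was the most strongly changed of the membrane and secreted markers. This gene (chromosome 8, 71497765 to 71511752, minus strand) encodes the protein of diaphragms in endothelial fenestrae and caveolae. Its levels were 23.6, 26.9 and 16.6 CPM in the WT/WT libraries, against 42.4, 92.0 and 82.3 CPM in the KO/KO ones. KO/KO replicates 2 and 3 stood far above replicate 1, which itself exceeded each WT/WT library. Its log2 fold change was 1.69 (SE 0.27, 95% interval 1.09 to 2.30, edgeR adjusted p = 0.00355), and it stayed called in every alternative fit.

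Some endothelial markers rose with Plvap, and others did not. Of 10 in the list 8 were tested and 5 rose (Cdh5, Vwf, Flt1, Kdr and Sox18), and the summed level was 38.0 to 44.6 CPM in the WT/WT libraries, against 126 to 166 CPM in the KO/KO ones. Without any single WT/WT library, or without KO/KO replicate 2 or 3, 4 rose, and Sox18 was not called. Among the other 5 endothelial genes, Emcn, which encodes endomucin, was at most 0.137 CPM, Esam at most 0.457 CPM, and Pecam1 was between 2.7 and 4.88 CPM in the WT/WT libraries, against between 3.12 and 5.23 CPM in KO/KO. Tek, a receptor gene, had a log2 fold change of -0.18 (SE 0.21). Cldn5 had 0.228, 0.104 and 0.0245 CPM in the WT/WT libraries, against 0.402, 0.466 and 0.434 CPM in the KO/KO ones, which did not overlap, and was not called (edgeR adjusted p = 0.0914). Of 4 lymphatic endothelial markers, set here beside Foxc2, Lyve1 and Flt4 rose, and Lyve1 lost its call without any single WT/WT library. Prox1, the lymphatic master regulator, was between 1.35 and 1.83 CPM in the WT/WT libraries, against between 0.372 and 1.20 CPM in KO/KO. It lay lower without overlap and was not called (log2 fold change -1.05, SE 0.41, edgeR adjusted p = 0.122). Without the filter on low counts, and without KO/KO replicate 2, Prox1 was called lower (edgeR adjusted p = 0.0481 and 0.0427). Pdpn had a log2 fold change of -0.30 (SE 0.21) and was not called. The part of endothelial cells in the Plvap and Foxc2 values was not tested.

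**Figure D2:**
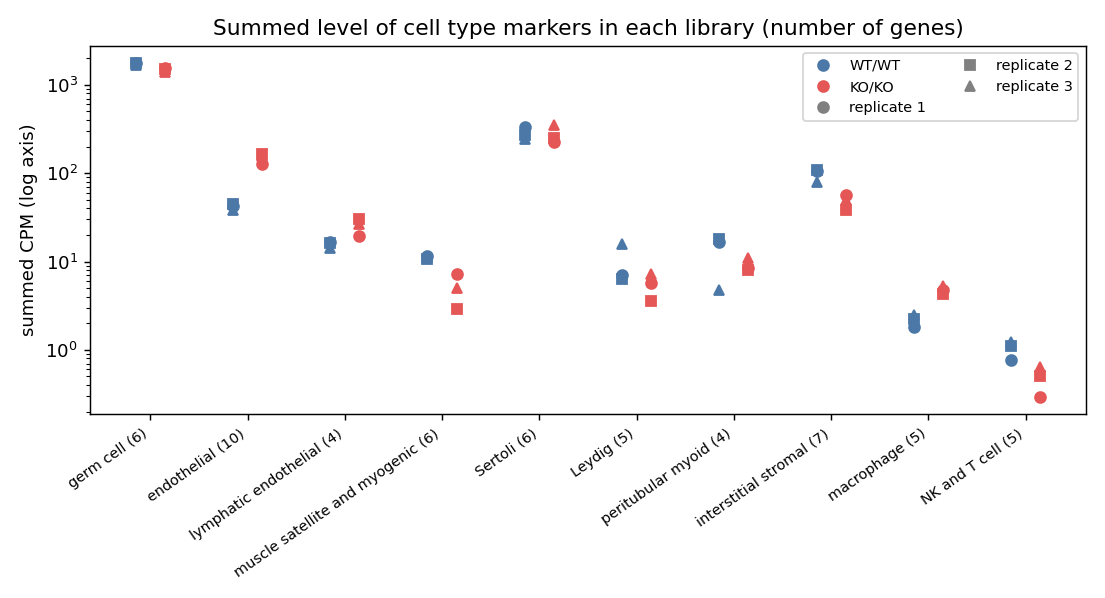
Summed CPM (log axis) of 10 lists of cell type markers in each library, blue for WT/WT and red for KO/KO, with shape giving the replicate number. Endothelial markers, of which 5 of 10 were called higher, sum to 38.0 to 44.6 CPM in the WT/WT libraries, against 126 to 166 CPM in the KO/KO ones. Sums of Sertoli markers overlap between the genotypes, and those of germ cell and interstitial stromal markers lie lower in KO/KO.

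Tspan8 (chromosome 10, 115816832 to 115849893, plus strand) encodes a tetraspanin of the cell surface that has been used to isolate stem cell-rich fractions. It stood at 3.70, 3.72 and 2.16 CPM in the WT/WT libraries, against 5.29, 11 and 7.78 CPM in the KO/KO ones. The libraries did not overlap, and KO/KO replicate 1 was again the nearest to WT/WT. The log2 fold change was 1.33 (SE 0.30, edgeR adjusted p = 0.0172), and the call was lost without WT/WT replicate 2 (edgeR adjusted p = 0.0516) and replicate 3 (0.0661).

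Shisa6 and Smoc2 did not pass the test, and they differed in how well their levels were fixed. Smoc2 (chromosome 17, 14279506 to 14404790, plus strand) encodes a secreted calcium-binding matrix protein known from intestinal stem cells. It had 44.1, 43.5 and 45.0 CPM in the WT/WT libraries, against 44.9, 46.0 and 47.4 CPM in the KO/KO ones. All 6 libraries lay close together, with a log2 fold change of 0.06 (SE 0.09, 95% interval -0.13 to 0.25, edgeR adjusted p = 0.683).

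Shisa6 (chromosome 11, 66211725 to 66525964, minus strand) encodes a membrane protein that attenuates Wnt signalling and marks a subset of stem spermatogonia. It stood at 9.84, 9.12 and 8.09 CPM in the WT/WT libraries, against 7.62, 5.43 and 13.6 CPM in the KO/KO ones. KO/KO libraries lay on both sides of the WT/WT libraries and spread over 2.5-fold. The log2 fold change was -0.02 (SE 0.29, 95% interval -0.66 to 0.63, edgeR adjusted p = 0.977), so a change of either sign within that interval remains compatible with these libraries.

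**Figure D3:**
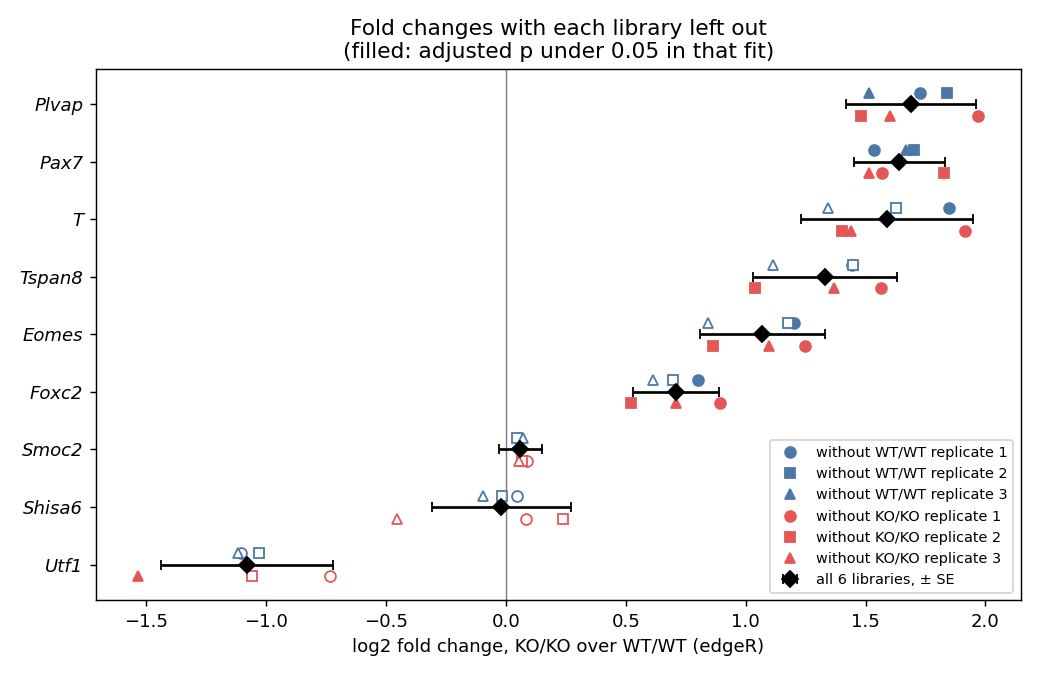
Log2 fold change of KO/KO over WT/WT for the 9 tested markers with all 6 libraries (black, ± SE) and with each library left out in turn (filled where the edgeR adjusted p was under 0.05). Pax7 and Plvap stay filled in all 6 reduced fits, and T, Tspan8, Eomes and Foxc2 are open without WT/WT replicate 2 or 3.

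Scaled by merged exon length (GENCODE M21), the order of levels in WT/WT, as mean CPM per kilobase, was Foxc2 (15.6), Plvap (11.3), Smoc2 (6.36), Utf1 (3.38), T (2.34), Tspan8 (1.87), Eomes (1.46), Pax7 (1.41), Shisa6 (1.21) and Pdx1 (0.0416). From Foxc2 down to T the range of each gene over the WT/WT libraries lay above that of the next. From T through Tspan8, Eomes and Pax7 to Shisa6, the ranges of adjacent genes overlapped, and Shisa6 was separate from Pdx1. In KO/KO the order was Plvap (36.3), Foxc2 (25.5), T (7.07), Smoc2 (6.63), Tspan8 (4.72), Pax7 (4.39), Eomes (3.07), Utf1 (1.59), Shisa6 (1.19) and Pdx1 (0.158). By the range over the KO/KO libraries, Foxc2 was separate from T and Shisa6 from Pdx1, and the ranges of all other neighbours in this order overlapped. The markers thus spanned a wide range, from Foxc2, above 85.1% of tested genes in WT/WT, to Pdx1, above 1.37%.

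The spread between libraries was itself shared by several markers. In Eomes, T, Pdx1, Tspan8, Foxc2 and Plvap, WT/WT replicate 3 was the lowest of its genotype, and KO/KO replicates ran from 1 through 3 to 2 in rising order. This order, described after the values were seen, was found in 9.46% of all genes tested and in 24.5% of the genes called higher. Pax7 did not follow it, as KO/KO replicate 2 was its lowest KO/KO library. In 65.1% of genes called higher, KO/KO replicate 1 was the lowest KO/KO library, which held for 5 of the 6 markers called higher. WT/WT replicate 3 also stood apart in cell type markers, with a summed 15.6 CPM of Leydig markers against 7.03 and 6.27 CPM in the other WT/WT libraries, and 4.80 CPM of peritubular myoid markers against 16.6 and 17.9 CPM. The part of these cells in the shared order was not tested.

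Likeness between markers was measured as the root mean square difference of their centred log2 CPM over the 6 libraries, where 0 means an identical course. Of 36 pairs of tested markers, Eomes and Tspan8 were closest, at 0.14, followed by T and Plvap, at 0.21. Pax7 and Utf1 were farthest apart, at 1.53. Predicted genes and those averaging under 1 on the log2 CPM scale were left out. Those nearest to Eomes were Mme (0.074), Fam160a1 (0.088) and Vav3 (0.112), and those nearest to T were Trpc7 (0.105), Dlgap2 (0.143) and Rfx8 (0.196). Nearest to Tspan8 were Arhgap42 (0.116), Kif19a (0.117) and Vav3 (0.118), and nearest to Plvap were Sult5a1 (0.103), Rfx8 (0.120) and Smox (0.147). Klhl29 (0.060), Park2 (0.061) and Egr2 (0.078) were nearest to Foxc2. The nearest to Pax7 were Cd68 (0.185), Ank1 (0.192) and Fmn2 (0.198). Of these neighbours Park2 was not called (edgeR adjusted p = 0.098), though it was without KO/KO replicate 1. Mme, Fam160a1, Vav3, Trpc7, Dlgap2, Kif19a, Klhl29 and Egr2 lost their calls in fits that left out a library. Trpc7 and Dlgap2 also lost theirs with limma-voom, and Trpc7 with the replicate block. The distance takes in the shift between genotypes, so genes near a called marker tend to share its change. No test was made of the distances.

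Other genes of the stem cell state, also chosen with earlier results of these data known, were set beside the markers. Of 13 companions, genes of the GDNF pathway and its targets among them, 8 rose and 2 fell (edgeR, adjusted over all genes), with a median log2 fold change of 0.66 against 0.00 over all genes. Gfra1, the GDNF co-receptor gene, was at 121, 121 and 99.8 CPM in the WT/WT libraries, against 196, 273 and 218 CPM in the KO/KO ones. Ret and Epha2, a receptor gene each, had log2 fold changes of 0.80 (SE 0.10) and 0.66 (SE 0.10). Id4, whose reporter set the gate, was at 36.9, 38.0 and 38.4 CPM in the WT/WT libraries, against 86.7, 176 and 159 CPM in the KO/KO ones. Whether the gate held the same cells in both genotypes was not tested. Lhx1 and Nanos2, transcription and RNA-binding regulators of self-renewal, had log2 fold changes of 0.92 (SE 0.14) and 0.91 (SE 0.23), and Nanos2 lost its call without WT/WT replicate 1 or 3 and without KO/KO replicate 1 or 3. The fallers were Bcl6b (-0.58, SE 0.11) and Pou3f1 (-0.55, SE 0.14), both induced by GDNF. Etv5, another GDNF target, stood at 111, 111 and 97.0 CPM in the WT/WT libraries, against 111, 195 and 152 CPM in the KO/KO ones and was not called by edgeR (adjusted p = 0.0660), though DESeq2 called it (adjusted p = 0.0164). The number that rose was 5 without WT/WT replicate 1 or 3, and Pou3f1 lost its call without any single WT/WT library and Bcl6b without WT/WT replicate 2. Of the 13 companions 7 had the library order shared by Eomes, T, Tspan8, Foxc2 and Plvap.

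**Figure D4:**
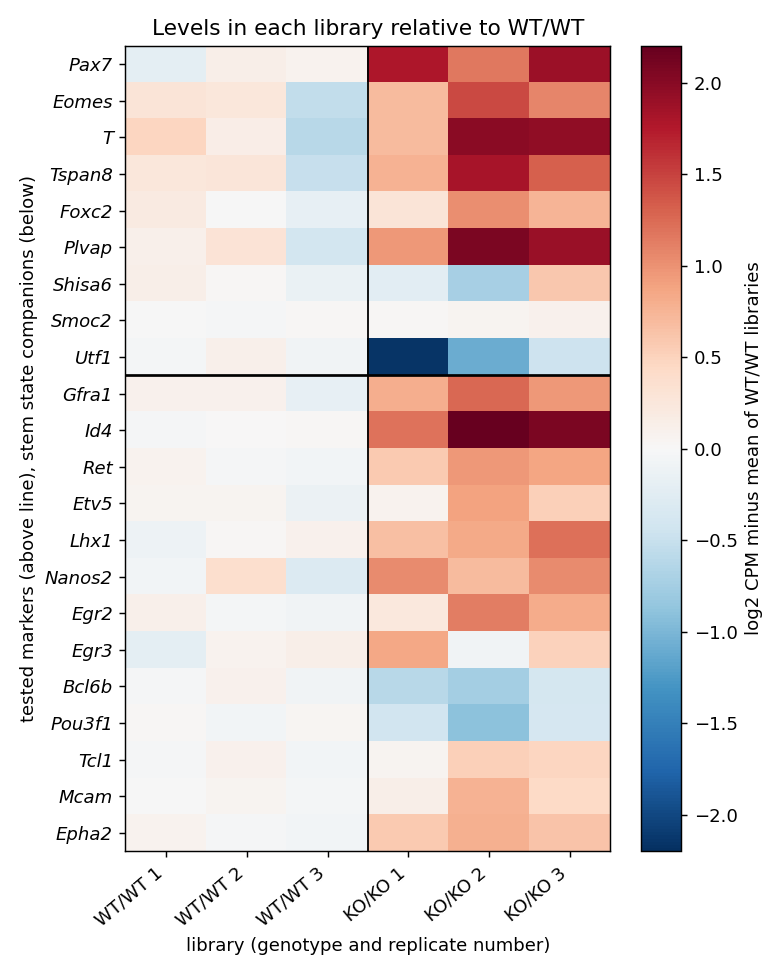
Log2 CPM of the 9 tested markers and 13 companion genes in each library, minus the mean of the WT/WT libraries. Pax7 is red in all 3 KO/KO columns, Eomes, T, Tspan8, Foxc2 and Plvap are paler in KO/KO replicate 1 than in replicates 2 and 3, and Utf1 is darkest blue in KO/KO replicate 1.

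Genes of later stages were lower where they were called. Of 7 progenitor genes 3 fell, namely Neurog3, Sox3 and Sohlh2, with log2 fold changes of -3.03 (SE 0.50), -2.67 (SE 0.55) and -1.16 (SE 0.22). Without KO/KO replicate 2, 5 fell. None rose (0 at an unadjusted p under 0.05, with DESeq2 and with limma-voom). Of 6 differentiating genes 4 fell, namely Kit, Dmrtb1, Sohlh1 and Stra8, and none rose by edgeR with all libraries (1 at an unadjusted p under 0.05, 1 with DESeq2, namely Rhox13, and 0 with limma-voom). Rhox13 was called higher by edgeR without WT/WT replicate 3, without KO/KO replicate 2 and without the filter on low counts. Kit was at 118, 98.9 and 150 CPM in the WT/WT libraries, against 38.6, 5.63 and 8.44 CPM in the KO/KO ones, and Dmrtb1 at 15.3, 16.5 and 20.2 CPM and 5.92, 1.46 and 2.40 CPM. For both, KO/KO replicate 1 was the KO/KO library nearest to WT/WT, as it was for T and Plvap. Stra8, a retinoic acid target, lost its call without any single WT/WT library, without KO/KO replicate 3 and with DESeq2. The part of a changed mix of stages in the values of the markers was not tested.

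Among other members of the markers' families, calls ran in both directions. Of the other 10 T-box genes tested, edgeR called 3 lower, Tbx1, Tbx3 and Tbx20, and none higher (0 also at an unadjusted p under 0.05, with DESeq2 and with limma-voom). Tbx1 was at 8.40, 5.25 and 4.56 CPM in the WT/WT libraries, against 1.43, 0.892 and 1.01 CPM in the KO/KO ones, opposite in direction to Eomes and T, and the call of Tbx20 was lost without any single WT/WT library. Of 3 other Pax genes tested, Pax8 rose, from 3.83, 3.53 and 2.87 CPM to 7.89, 7.42 and 8.61 CPM. Of 7 other Shisa genes, Shisa2, Shisa5 and Shisa9 rose and Shisa3 fell, from 2.37, 2.12 and 2.60 CPM to 0.134, 0 and 0.109 CPM, while Shisa2 lost its call without any single WT/WT library. Of 23 other tetraspanin genes, edgeR called Cd9 higher, with a log2 fold change of 0.40 (SE 0.11), and it lost its call in 5 of the 6 fits that left out a library. None of the 23 was called lower (2 at an unadjusted p under 0.05 and 0 with limma-voom). DESeq2, counted over all 28 other tetraspanin genes, those too low for edgeR included, called 2 lower. Tspan18, with a log2 fold change of -0.80 (SE 0.24, edgeR adjusted p = 0.0503), was called lower with DESeq2, with RLE or upper quartile factors, with the filter of 1 CPM or none, and without KO/KO replicate 3. Of 6 other genes of the SPARC family, to which Smoc2 belongs, edgeR called none (0 at an unadjusted p under 0.05 and 0 with DESeq2 or limma-voom). Spock3, with 0, 0 and 8 counts in WT/WT and 6, 21 and 34 in KO/KO, was too low for the test with all libraries. It was called higher without WT/WT replicate 3, the only WT/WT library in which it had counts. Foxf1, a forkhead gene, fell (log2 fold change -0.71, SE 0.20), and lost its call without WT/WT replicate 1 or 2 and without KO/KO replicate 1 or 3.

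Of the nearest protein-coding genes on either side of the 10 markers, all were tested but Tas1r2, Gsx1, Cdx2 and Pirt. Among those tested 1 was called, where 14.8% of all genes tested were called in either direction. The called gene was T2, which ends 10910 bases before T. It had 1.99, 2.41 and 1.27 CPM in the WT/WT libraries, against 2.48, 6.4 and 6.2 CPM in the KO/KO ones. KO/KO replicate 1 again lay nearest to WT/WT, and for T2 the log2 fold change was 1.41 (SE 0.37, edgeR adjusted p = 0.0327). Its call was lost in all fits that left out a library other than KO/KO replicate 1. Ano8 and Bst2, on either side of Plvap, did not overlap between the genotypes but were not called (log2 fold changes 0.60 and 0.68, edgeR adjusted p = 0.0876 and 0.0735), and Bst2 was called without KO/KO replicate 1 (edgeR adjusted p = 0.0362). Dact2 and Thbs2, on either side of Smoc2, also lay higher in KO/KO without overlap and without a call, with log2 fold changes of 0.28 and 0.80 (edgeR adjusted p = 0.129 and 0.144). Lgr5, before Tspan8, lay lower in KO/KO without overlap and without a call (log2 fold change -1.22, SE 0.50, edgeR adjusted p = 0.138). Of all genes tested, 18.2% lay higher and 17.5% lower in KO/KO without overlap. Foxl1 and Mthfsd, which flank Foxc2 within 9045 bases, had log2 fold changes of 0.08 (SE 0.23) and -0.04 (SE 0.13). Golga4, after Eomes, averaged 196 CPM in WT/WT, against 217 CPM in KO/KO, and was not called. Overlap of the markers' exons with other genes was small: at most 2.84% of exon bases, in Eomes under an antisense gene, and 0.235% in Tspan8.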

How the data were processed

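RNA was sequenced from 6 samples, 3 per genotype. Per the labels' protocols, extraction used a PicoPure kit, a DNase step followed, and the SMARTer kit for stranded total RNA made the libraries. The authors deposited whole-number read counts for 55292 rows per library, 54087 genes and 1205 repeat families, and the submitters' processing notes name STAR 2.7.0a, featureCounts 1.5.1 and the build mm10. Which annotation and strand setting were used, and how reads with several positions were counted, are points not given in the sources used here.

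For gene counts, the test was the quasi-likelihood F test of edgeR 4.0.16 under R 4.3.3 (TMM factors, filterByExpr with its minimum count of 10, genotype as the only term, all 6 libraries), two-sided, with Benjamini-Hochberg adjustment over 21314 genes and a threshold of 0.05. CPM used gene totals of 42681201 to 61749155 and TMM factors. The standard error is the size of the log2 fold change divided by the square root of F. Distances used log2 CPM with a prior count of 2. Repeat families were left out.

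The markers and gene lists were chosen with earlier results of these data known. Named genes are the markers, up to 4 per list by smallest p, flanking coding genes, and for each called marker the 3 nearest genes among those averaging 1 or more in log2 CPM. Family members, marker genes and examples outside this rule were named after their values were seen. Further lists were germ cell, endothelial, lymphatic, muscle, Sertoli, Leydig, myoid, stromal, macrophage and lymphocyte markers. The fit was tested on simulated data. The alternatives tried were upper quartile and RLE factors, no filter, a filter of 1 CPM in 3 libraries, DESeq2 1.42.0, limma-voom (3.58.1), a replicate block, library sizes over all rows, and leaving out each library. Positions came from GENCODE M21 (GRCm38, the assembly of mm10) and promoter windows from RefSeq. Figures were drawn with matplotlib 3.10.9.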

Additional observations from a re-analysis of the deposited data

How the results depend on the processing

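RLE and upper quartile factors, the filter of 1 CPM in 3 libraries, limma-voom and library sizes over all rows left 6 markers called higher and 0 lower. The number called higher was between 2 and 6 with each library left out, and the number called lower between 0 and 1. It was 1 lower, Utf1, without the filter, 1 with DESeq2 and 1 with the replicate block, and the cause was not tested. Over all genes, leaving out a library gave 814 to 1985 higher and 560 to 1380 lower, and such fits have fewer samples. The sign of Shisa6, near 0 with all libraries, turned without WT/WT replicate 1 (0.04), KO/KO replicate 1 (0.09) and KO/KO replicate 2 (0.24), and over all 6 reduced fits its log2 fold change ran from -0.45 to 0.24. With the replicate block, 6 markers were called higher, 1467 genes higher and 1107 lower. Same-numbered libraries deviated from their genotype means with correlations of -0.18, 0.06 and 0.09 across genes. As each mean is of 3 libraries, these correlations cannot tell whether same-numbered samples were paired. Not every library correlated best with its own number: WT/WT replicate 1 did so with KO/KO replicate 2 (0.33). Depth limits Pdx1, with 12 counts in WT/WT and 55 in KO/KO.

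Of the other marker lists, Cd68 rose among 3 macrophage markers tested, Pdgfra and Col1a1 fell among 6 stromal markers, and Zbtb16 and Sall4 fell among 6 germ cell markers, where Sall4 lost its call with RLE or upper quartile factors, with the 1 CPM filter and without any library other than KO/KO replicate 2. Pdgfra lost its call without WT/WT replicate 1 or 2.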
